A study of Danio rerio with 6 samples.

Results

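The deiodinase and thyroid hormone receptor genes of the zebrafish were read in embryonic eyes exposed to retinoic acid (RA). They were chosen by name, as probe sets whose single gene symbol starts with dio followed by 1, 2 or 3, or with thra or thrb, or is ttr. The rule found 8 probe sets, and so 5 genes, among the 15617 probe sets deposited, of which those with a single symbol cover 8793 genes. They measure dio1, dio2, thraa and thrb, the last with 4 probe sets, and thrap3b. The last of these genes encodes a receptor-associated protein that the rule caught by its letters, and it is described apart, which leaves 7 probe sets of 4 genes. No probe set has ttr, dio3a, dio3b or thrab as its single symbol, and these genes were not analysed here. The rule itself uses no measured value.

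Thyroid hormone leaves the thyroid mainly as thyroxine, a precursor that becomes active when an outer ring iodine is removed. The type 2 deiodinase encoded by dio2 makes this step inside target cells. The type 1 enzyme, dio1, can remove iodine from either ring, and type 3 enzymes inactivate the hormone. The active hormone binds nuclear receptors, encoded by the alpha gene thraa and the beta gene thrb, which sit on DNA as dimers with retinoid X receptors (RXRs), the same partners that RA receptors use. In the zebrafish retina thrb is known for its need in the formation of red-sensitive cones, whose opsins belong to the long wavelength-sensitive (LWS) class.

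Eyes came from wild-type embryos of the outbred SciH line at 75 hours post fertilization (hpf). The embryos came from 3 clutches. The samples bear the numbers 1, 3 and 4, which are taken here as the clutches, though the labels do not name them so. From 48 hpf to 75 hpf, part of each clutch received all-trans RA at 0.3 µM, and the other part only the carrier, dimethylsulfoxide (DMSO). RNA of 64 pooled eyes was amplified with a NuGen kit and hybridized to 1 Affymetrix Zebrafish Genome Array, giving 3 DMSO arrays and 3 RA arrays. The pools are whole eyes of many embryos, so fewer cells of a type and less RNA per cell cannot be told apart. Values below are the deposited signals on a linear scale, listed for clutches 1, 3 and 4 in that order. Differences are RA minus DMSO on the log2 scale from limma, fitted over 15555 probe sets, with Benjamini-Hochberg adjusted p-values and a threshold of 10% false discovery rate (FDR). A signal of 13.2, the highest of 87 control probe sets without a target on any array, was taken as background.

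The arrays had medians of 39.5 to 43.5, and 67.2% to 70.0% of probe sets lay above background. RA-degrading cyp26a1 and cyp26b1 and the retinaldehyde reductase gene dhrs3a rose by 3.70, 4.71 and 3.95 on the log2 scale, all past the threshold and without overlap between the groups. Of 24 measured marker genes of lens, photoreceptors, pigment epithelium and retinal neurons, 22 were above background on all arrays, and the pigment gene tyr and the lens gene crygm4 on 1 array each. Of 6 measured liver genes, fabp10a, fga and fgb were at background on all arrays, apoa2 was above it on all 6, tfa on 2 and ambp on 1. Markers of other tissues outside the retina were present. All 5 measured skin genes, 4 of 5 of skeletal muscle, 4 of 5 of blood and 5 of 6 of periocular mesenchyme were above background on all arrays. The part of these tissues in the results below was not tested. In the comparison as a whole, 131 probe sets passed, or 0.842% of those tested, 94 of them higher and 37 lower with RA. The 3'/5' ratio of the actin control acta1, a sign of how far amplified RNA reaches from the 3' end, was 64.5, 20.2 and 12.0 in the DMSO pools. It was 7.65, 11.7 and 5.30 in the RA pools, so the groups did not overlap. The same ratio of gapdh lay between 1.32 and 2.58. The part of this difference in the results below was not tested. Without the DMSO array of clutch 1 the acta1 ratios of the groups still did not overlap, so fits without that array do not test it.

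None of the 8 probe sets passed the threshold, beside 0.842% of all probe sets. The groups did not overlap for 3 of the 8, those of dio2, dio1 and thrap3b, beside 15.3% of all probe sets. Of these, dio1 was under background on all arrays, where signals have no order. The gene nearest to the threshold was dio2, with signals near 22 on all RA arrays and at background on all DMSO arrays. The receptor genes thraa and thrb gave overlapping groups, and dio1 could not be told from background in either group.

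The activating enzyme gene dio2 gave signals of 5.52, 10.4 and 8.09 after DMSO and 21.3, 23.9 and 21.2 after RA. Every DMSO signal lay at or under background and every RA signal above it, so the groups did not overlap. RA above DMSO without overlap was seen for 6.98% of all probe sets. The group means were 8.01 ± 2.45 and 22.1 ± 1.56 (SD, n = 3). Since the DMSO level is only bounded by background, the RA signal was at least 1.68-fold higher. This bound sets the RA mean of log2 signals against the background signal.

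The fitted log2 difference of dio2 was 1.51 with a standard error of 0.26 and a 95% interval of 0.88 to 2.14. Its unadjusted p of 9.9e-04 gave an adjusted p of 0.11 in limma, just over the threshold. SAM, the test named in the methods, was written anew here and run on the deposited signals, where it gave a q-value of 0.12. These signals were not normalized as the methods describe. The paper, from its own normalized values, lists dio2 among the genes higher with RA, so the q-value here does not repeat its test. With the clutch as a block the limma adjusted p was 0.21. In the order of p-values dio2 stood at place 140, behind the 131 that passed and 8 others. This difference and its interval use the DMSO signals as they stand, all under background, and are therefore no measured fold. Against background, RA stood higher by at least 0.69, 0.86 and 0.68 on the log2 scale in clutches 1, 3 and 4. The exact permutation test of the 3 against 3 arrays, two-sided, gave p = 0.1, the smallest that free relabeling allows. With swaps only within the 3 clutches, the exact p was 0.25, again the smallest possible. Without the DMSO array of clutch 1, the one with the highest acta1 ratio, the fitted difference was 1.27 with an adjusted p of 0.11.

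**Figure D1:**
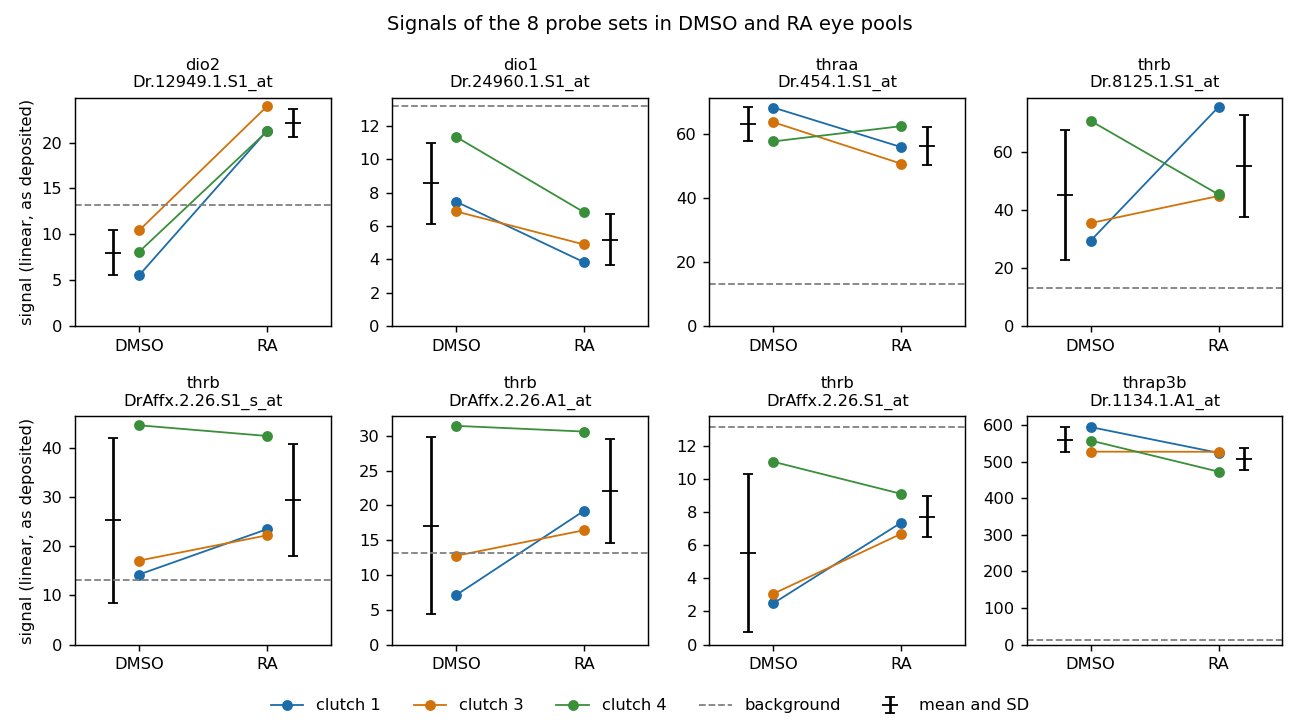
Signals of the 8 probe sets on linear axes that start at 0, with 1 point per array, the DMSO and RA pools of a clutch joined by a line, the mean and SD of each group beside them and the background of 13.2 dashed. The dio2 points are at or under the line with DMSO and between 21.2 and 23.9 with RA, while the thraa and thrb points of the groups overlap.

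The other measured deiodinase gene, dio1, had signals of 7.45, 6.87 and 11.3 with DMSO and 3.82, 4.89 and 6.81 with RA. All 6 lay under background, so no fold is given. The RA signals lay below all DMSO signals, as they did for 8.28% of all probe sets, but signals under background have no order, and the adjusted p of limma was 0.57. At such signals the array does not show whether dio1 was expressed in either group.

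The alpha receptor gene thraa was above background on all 6 arrays. Its signals were 68.3, 63.8 and 57.8 with DMSO and 56.0, 50.8 and 62.5 with RA. The ranges overlapped, since the RA pool of clutch 4 exceeded the DMSO pool of the same clutch. The means of 63.3 ± 5.31 and 56.4 ± 5.89 (SD, n = 3) differed by -0.17 on the log2 scale, with a standard error of 0.17 and a limma adjusted p of 0.89. Its 95% interval ran from -0.58 to 0.24, or from 0.67 to 1.18 as RA over DMSO. RA stood below DMSO by -0.29 and -0.33 in clutches 1 and 3 and above it by 0.11 in clutch 4.

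The beta receptor gene thrb was read by 4 probe sets, and none of them gave separate groups. The brightest had signals of 29.3, 35.5 and 70.7 with DMSO and 75.4, 44.8 and 45.3 with RA. The DMSO pool of clutch 4 and the RA pool of clutch 1 were high and the DMSO pools of clutches 1 and 3 were low, so that both groups spanned much of the range. The means were 45.2 ± 22.3 and 55.2 ± 17.5 (SD, n = 3). The log2 difference was 0.35 with a standard error of 0.39 and a limma adjusted p of 0.91. Its interval, -0.60 to 1.31, allows RA over DMSO to be anywhere from 0.66 to 2.47, and so neither a loss nor a gain of that size is shown or shown to be absent.

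By clutch, the brightest thrb probe set differed by 1.36 in clutch 1, by 0.34 in clutch 3 and by -0.64 in clutch 4. Without clutch 1 the fitted difference turned to -0.15. It stayed above 0 without only the DMSO array of clutch 1 (0.10) and without only its RA array (0.10). The sign of the thrb difference therefore turned only when both arrays of clutch 1 were left out.

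The other 3 thrb probe sets carry 1 design name that starts with DrAffx, are dimmer, and are told apart by their suffix. S1_s_at, whose suffix marks probes shared by several transcripts, read 14.2, 17.1 and 44.6 with DMSO and 23.5, 22.2 and 42.4 with RA. Both clutch 4 pools were about equal and stood above the other 4 pools. A limma test of the clutches across this probe set gave an unadjusted p of 0.016 and an adjusted p of 0.58. The same test gave an unadjusted p of 0.66 for the brightest thrb probe set. For the DrAffx probe sets A1_at and S1_at it gave 0.058 and 0.13. The RA difference of S1_s_at was 0.34 with a limma adjusted p of 0.93.

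The DrAffx probe set A1_at read 7.11, 12.8 and 31.5 with DMSO and 19.2, 16.4 and 30.6 with RA. The DMSO pools of clutches 1 and 3 were at background and the clutch 4 pools were again the highest. The difference was 0.59 with a limma adjusted p of 0.88, but it uses these signals as they stand and is no measured fold. With signals raised to background it was 0.27. The fourth, DrAffx S1_at, lay between 2.50 and 11.1 on all arrays, all of them under background, and no fold is given.

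Over the 6 arrays the 3 DrAffx probe sets had pairwise Pearson correlations of log2 signal of 0.92 to 0.96, and correlated at 0.65 to 0.83 with the brightest probe set. These are descriptions over arrays that share their treatment and their RNA, and A1_at was at background on 2 arrays and S1_at on all 6, where differences were not measured. The 5' control probe set of acta1 read 36.0, 70.9 and 126.7 with DMSO and 149.7, 97.9 and 283.3 with RA. Its log2 signal had correlations of 0.63 with the brightest thrb probe set and of 0.84, 0.91 and 0.85 with the DrAffx probe sets S1_s_at, A1_at and S1_at. The part of this in the thrb values was not tested.

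**Figure D2:**
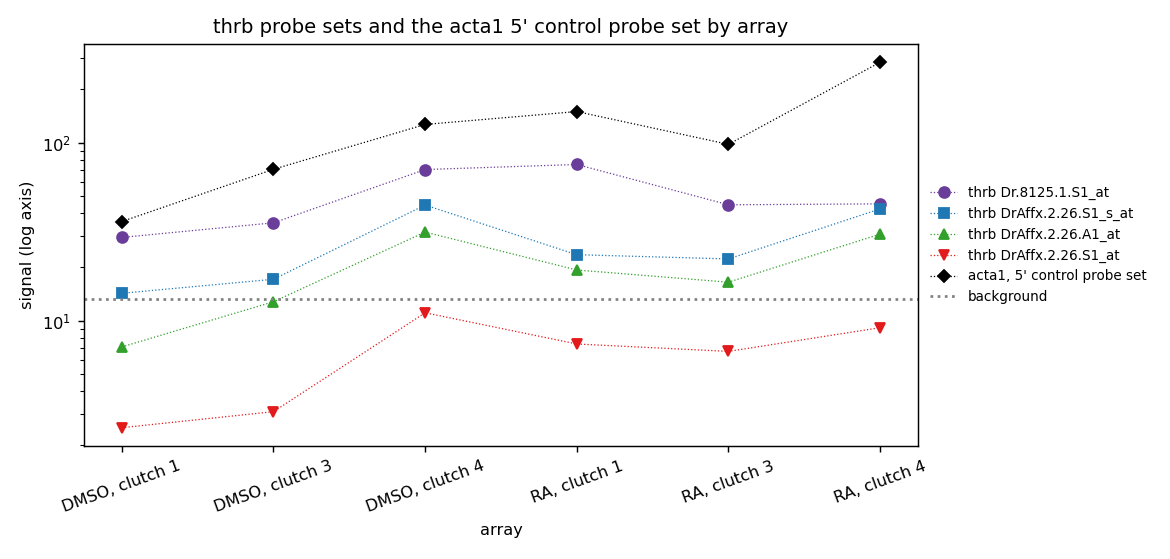
Signals of the 4 thrb probe sets and of the acta1 5' control probe set on each of the 6 arrays, on a log axis, with the background of 13.2 as a dotted line. Thin dotted lines only join the points of 1 probe set. The 2 thrb probe sets above background on all arrays were lowest on the DMSO array of clutch 1.

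**Figure D3:**
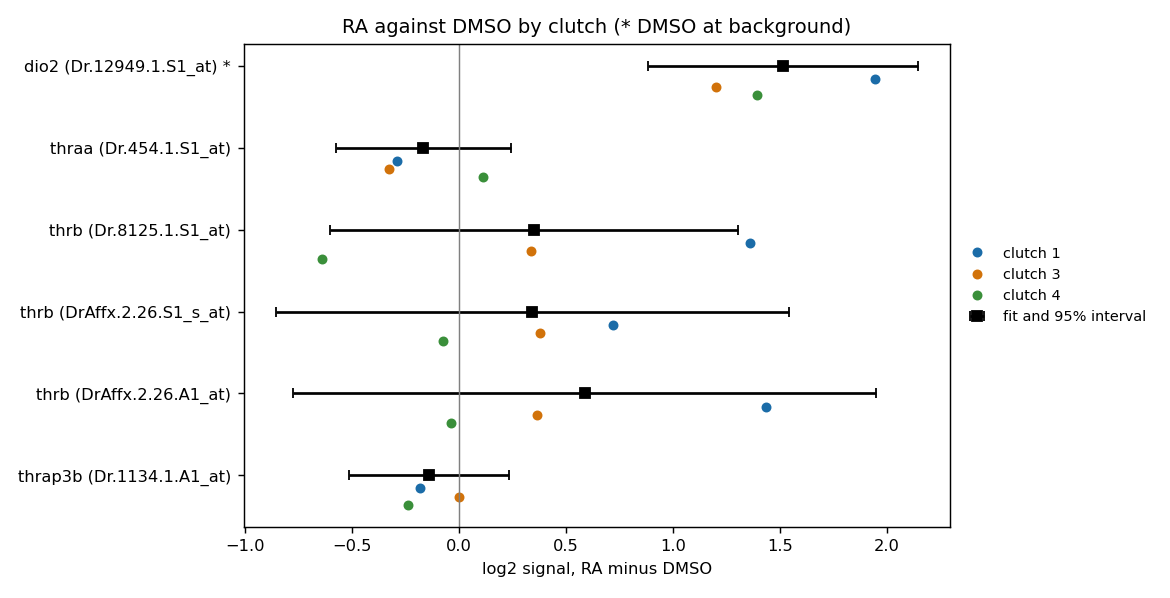
RA minus DMSO in log2 signal for the 6 probe sets above background in at least 1 array, with the limma estimate and its 95% interval as a square with a bar and the 3 clutches as dots. The star marks dio2, whose DMSO signals were all at background, so that its position is no measured fold. The position of the thrb probe set A1_at, at background in the DMSO pools of clutches 1 and 3, is none either. The dots of the 3 thrb probe sets lie on both sides of 0.

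The gene caught by letters alone, thrap3b, encodes a nuclear protein that associates with the mediator complex and RNA processing factors. It was bright, with 595, 528 and 558 with DMSO and 524, 527 and 473 with RA. The RA signals were all below the DMSO signals, by a narrow margin in clutch 3, and the difference of -0.14 had a limma adjusted p of 0.90.

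Ratios within an array set the change of 1 gene against that of another. Since dio2 was under background on all DMSO arrays, it was set to background there, and the DMSO ratios then vary only with the other gene. On this footing the log2 ratio of dio2 to thraa was higher with RA by at least 0.91 on average, and that of dio2 to the brightest thrb probe set by at least 0.39, the latter with overlapping groups. No test is given for these bounds.

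Genes whose log2 signal over the 6 arrays most resembled each member were looked up among 6319 genes above background on all arrays (6318 where the member was itself among them). For dio2, 52 genes had a Pearson correlation (r) over 0.95. The highest belonged to lgals3bp.1, the vascular endothelial growth factor receptor gene kdrl, the small heat shock protein gene hspb1, the teneurin gene tenm3 and memo1. These 5 ran from 0.984 to 0.997. The 3 DMSO signals of dio2 were under background, so these values rest in part on differences that the array did not measure, and no order among the 5 genes is read. These 5 genes were picked on the same 6 arrays for a pattern like that of dio2, so their own RA differences are a description and no support. Only hspb1 was past the threshold, beside 0.842% of all probe sets, with a log2 difference of 1.62 and a limma adjusted p of 0.058. The gene lgals3bp.1 stood at 1.81 with a limma adjusted p of 0.13. For thraa, 8 genes had an r over 0.95, led by zgc:77880 (0.986) and the chromatin remodeler gene atrx (0.978). For the brightest thrb probe set 4 did, led by the ornithine decarboxylase gene odc1 (0.976). The DrAffx probe sets of thrb did not share this lead. For S1_s_at, A1_at and S1_at, 30, 44 and 18 genes had an r over 0.95, led by nsun2, fahd2a and crfb1. S1_at was under background on all arrays and A1_at in the DMSO pools of clutches 1 and 3. Their values therefore rest wholly or in part on differences that the array did not measure. Such correlations over 6 arrays rest on the treatment and on the differences between clutches alike.

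The other genes of the pathway give the background to these values. Lists of hormone carriers, transporters, RXR partners, corepressors, coactivators, factors of type 2 deiodinase turnover and of selenocysteine insertion, hormone-responsive genes and genes of hormone synthesis held 87 symbols beside the members, some of them older names of the same gene. Of these, 37 were measured and 26 were above background on all arrays. Among the 37 genes, 1 passed with RA higher and 0 with RA lower, against 0.604% and 0.238% of all probe sets. An unadjusted limma p under 0.05, reached by 8.76% of all probe sets, was seen for mbpa, klf9, rxrga, trip13, tshba, trnau1apa and ncoa2. Groups did not overlap for 6 with RA higher and 2 with RA lower, beside 6.98% and 8.28% of all probe sets. Among the 6, tshba was at background on all arrays, and ncoa2 was above it on only 1 array, with RA. For both, the separation of the groups was not measured. The median log2 difference of the 37 was 0.03, or 0 with signals raised to background, beside -0.005 over all probe sets tested, and 29 of them differed by under 0.5 in either direction.

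**Figure D4:**
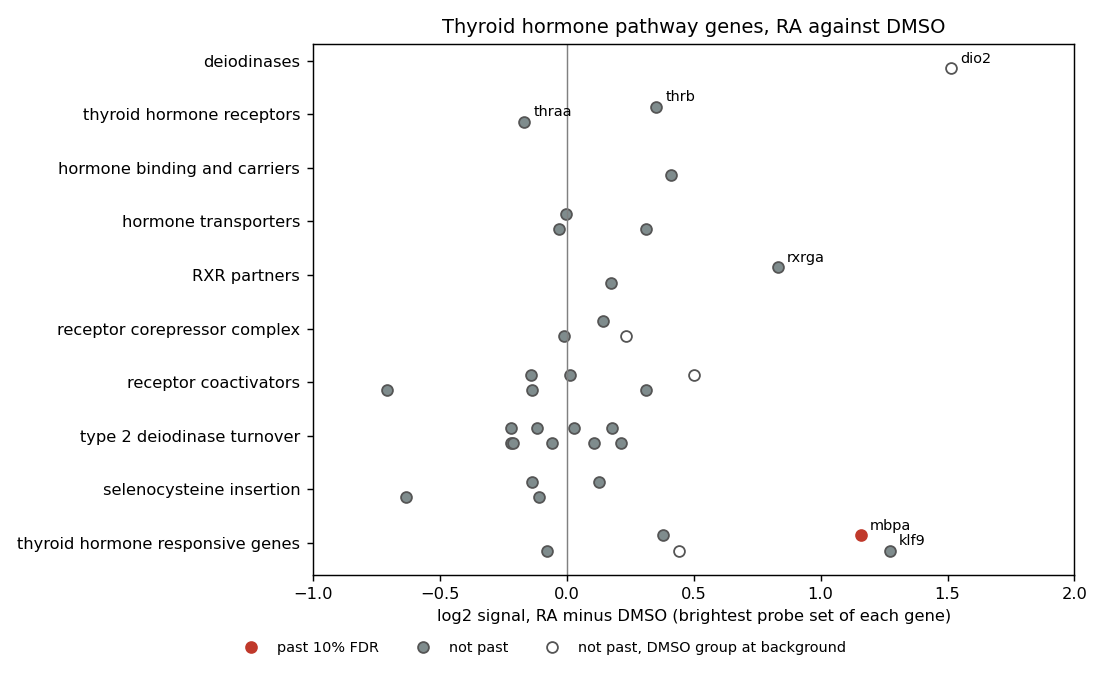
RA minus DMSO in log2 signal for the brightest probe set of each measured pathway gene, members included, by list, with the gene past the 10% FDR filled red, genes whose DMSO group was at background drawn as empty circles, and genes at background on all arrays left out. Only mbpa is red, and dio2 is among the empty circles, so its position is no measured fold.

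The gene that passed was mbpa, which encodes a myelin basic protein whose mammalian counterpart is induced by thyroid hormone. It read 23.7, 18.9 and 18.3 with DMSO and 40.2, 48.8 and 46.7 with RA, with no overlap. It rose by 1.16 on the log2 scale with a limma adjusted p of 0.082, and with the clutch as a block the adjusted p was 0.26. SAM, as written anew here and run on the deposited signals, gave it a q-value of 0.10, just over 10%. In limma it passed in only 1 of the 6 fits that left out an array, that without the DMSO array of clutch 1 (0.087). In the others the adjusted p reached 0.33. Its paralog mbpb differed by 0.38 with an adjusted p of 0.83.

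The transcription factor gene klf9, a direct target of thyroid hormone receptors in frogs and mammals, read 100, 150 and 102 with DMSO and 243, 282 and 315 with RA. The groups did not overlap, but the log2 difference of 1.27 had a limma adjusted p of 0.11, close to that of dio2. Of the other responsive genes, me1 differed by 0.44 and nrgna by -0.08, with limma adjusted p-values of 0.67 and 0.95. The me1 signal was above background on only 1 array, with RA, so its 0.44 is no measured fold.

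Of the RXR partners, rxrga, one of the RXR gamma genes, read 58.5, 71.3 and 61.4 with DMSO and 91.2, 122 and 129 with RA. Its groups did not overlap, but its log2 difference of 0.83 had a limma adjusted p of 0.25. The other 3 measured RXR genes, rxrab, rxrba and rxrbb, overlapped between the groups, and rxrab and rxrbb were at background on all arrays.

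**Figure D5:**
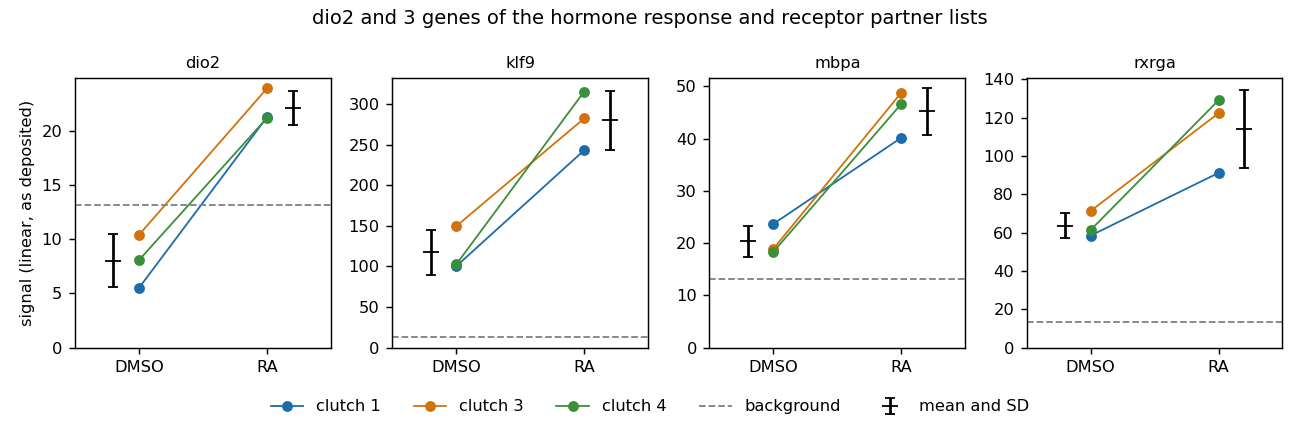
Signals of dio2, klf9, mbpa and rxrga on each array, on linear axes that start at 0, with the DMSO and RA pools of each clutch joined by a line, the mean and SD of each group and the background of 13.2 dashed. RA lies above DMSO in all 3 clutches for all 4 genes, but only mbpa passed the 10% FDR in limma.

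Of 9 measured genes that handle the type 2 enzyme after it is made, 0 passed, beside 0.842% of all probe sets. They act through ubiquitin ligases and deubiquitinases known from mammals. Their differences lay between -0.22 for the deubiquitinase gene usp33 and 0.21 for the ligase gene marchf6. The adapter gene wsb1 differed by 0.11 and the deubiquitinase gene usp20 by -0.21. Deiodinases need selenocysteine, and of 4 measured genes of its insertion none passed, beside the same 0.842%. The lowest was trnau1apa at -0.63 with a limma adjusted p of 0.55. Its signals of 24.6, 29.0 and 41.3 with DMSO lay above those of 17.8, 18.7 and 23.8 with RA.

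The amino acid transporter subunits slc7a8a, slc3a2a and slc3a2b, parts of carriers that also move thyroid hormone, differed by -0.002, -0.03 and 0.31 and none passed. The cytosolic hormone-binding protein gene crym differed by 0.41 with overlapping groups. Its DMSO signal of clutch 1 was under background, and with signals raised to background the difference was 0.28. In the corepressor complex ncor1, hdac3 and gps2 stood between -0.01 and 0.24. The 0.24 is that of ncor1, which was above background on only 1 array, with RA, and is no measured fold. Among 7 measured coactivator genes, thrap3b included, none passed, beside 0.842% of all probe sets. They ran from -0.71 for trip13 to 0.50 for ncoa2, with limma adjusted p-values of 0.47 and 0.55. The gene trip13 is named for binding the receptor and known as a checkpoint ATPase. Only 1 array, with RA, was above background for ncoa2, so its 0.50 is no measured fold.

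The thyrotropin subunit gene tshba was at background on all arrays, as was nkx2.4b, and no other gene of hormone synthesis on the list was measured.

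Markers of Müller glia, the main glia of the retina, are given beside dio2 because type 2 deiodinase is found in glia of the mammalian brain. Of the 6 measured, 2 stood higher and 2 lower with RA without overlap, beside 6.98% and 8.28% of all probe sets. None of the 6 passed the threshold, beside 0.842% of all probe sets. The glial filament gene gfap read 16.2, 39.9 and 28.8 with DMSO and 52.2, 75.3 and 65.2 with RA, with a limma adjusted p of 0.35. The lipoprotein gene apoeb also stood higher, and cahz and rlbp1a stood lower. The summed signal of the list was 5163 to 5576 with DMSO and 5059 to 5858 with RA. Their part in the dio2 values was not tested.

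Of 6 measured cone opsin genes, 1 passed the threshold, beside 0.842% of all probe sets. It was opn1lw1, the LWS1 opsin gene and the only one of the 6 in the LWS class, which read 32.5, 32.2 and 61.9 with DMSO and 1238, 1914 and 1745 with RA. It rose 40.0-fold, by 5.32 on the log2 scale, with a limma adjusted p of 0.0020. A relation to thrb was not tested.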

How the data were processed

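The authors deposited linear signal intensities per probe set, each array scaled to the same trimmed mean (2% left out at either end). The methods describe RMA, which these values are not; how they were made is not given in the sources used here. The deposited signals were taken to log2, in place of the RMA values planned for. Of 115 control probe sets 62 were left out and 53 kept. R 4.3.3 and limma 3.58.1 (lmFit, eBayes, two-sided) compared RA with DMSO without the clutch. Annotation followed a probe table in which 4753 tested probe sets have no single symbol. A gene stands for its brightest probe set.

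Clutches were split between treatments per the methods. The sample numbers were taken as clutches to pair the arrays, which the labels do not state. Deviations from the group means correlated at 0.16, 0.42 and 0.28 for clutches 1, 3 and 4 over 9791 probe sets. SAM was written anew with 20 relabelings. The members and lists were chosen with earlier results of these data known. Named pathway genes were those past the threshold, the extremes of each list and up to 3 more of small p; for each member the 5 most alike genes were looked up. Scripts were tested on simulated data. Alternatives were SAM, the clutch as a block, array weights, a trend of the variance, 2 other scalings, 16 added to the signal, a floor and a filter at background, 5% and 20% FDR, other thrb probe sets, and leaving out each array or clutch. The number of arrays limits the precision.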

Additional observations from a re-analysis of the deposited data

How the results depend on the processing

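The dio2 difference kept its direction in all 20 alternatives and was past the threshold of the setting in 7. These were a variance trend (1.51, adjusted p 0.045), array weights (1.23, 0.034), median centring (1.53, 0.077), 16 added to the signal (0.67, 0.046), signals raised to background (0.74, 0.048), a filter on background (1.51, 0.019), and 20% FDR (1.51, 0.11), all in limma. Signals raised to background make the 3 DMSO values of dio2 equal, and the filter admits dio2 only through its RA arrays, so neither is support for the call. Adding 16 also draws these DMSO values closer together, and 20% FDR is the unchanged fit at a looser threshold, so these are no support either. The fits with a variance trend, array weights and median centring use the DMSO signals under background as they stand. With arrays or clutches left out in turn it ran from 1.27 to 1.73, with adjusted p-values of 0.11 to 0.54, and never passed. The thraa difference stayed below 0 and past no threshold, from -0.31 to -0.09. The thrb difference turned to -0.15 without clutch 1, and with arrays or clutches left out ran from -0.15 to 0.85. With the clutch as a block the count of passing probe sets was 45 in place of 131, mbpa no longer passed (0.26), and dio2 had an adjusted p of 0.21. The block changed no other call among the genes tested this way (dio1, dio2, thraa, thrap3b, thrb, klf9 and rxrga). The count was 274 with a trend, 593 with weights, 232 with 16 added, 302 with the filter, 73 at 5% FDR and 291 at 20% FDR, and 16 to 117 with arrays or clutches left out. mbpa was past the threshold of the setting in 6 of 20 alternatives, klf9 in 5 and rxrga in 1. No value is given for dio1 with signals raised to background or filtered, since all of its signals lay under it. Scaling moved the median of all probe sets from -0.005 to 0.011 and -0.006.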

Other observations

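Deiodinases and thyroid hormone receptors are unevenly placed from dorsal to ventral in the eyes of several vertebrates, so lists of dorsal and ventral retina genes were read. None of the 7 dorsal and 6 ventral genes measured passed the 10% FDR, against 0.842% of all probe sets. Among dorsal genes the RA-synthesizing enzyme gene aldh1a2 read 64.9, 36.3 and 37.7 with DMSO and 18.0, 14.4 and 11.8 with RA in clutches 1, 3 and 4. The log2 difference was -1.62 with a limma adjusted p of 0.12. Its RA signal of clutch 4 was under background, and with signals raised to background the difference was -1.57. The groups did not overlap. The ephrin gene efnb2a and the bone morphogenetic protein family gene gdf6a stood above DMSO without overlap, by 1.28 and 0.60, with limma adjusted p-values of 0.46 and 0.33. Dorsal bmp4 also gave lower signals with RA without overlap, all of them under background. Of the ventral genes, the ephrin receptor gene ephb2b stood below DMSO without overlap by -0.43, with a limma adjusted p of 0.55. The gene ephb3a, at background with DMSO, gave higher signals with RA without overlap, also with a limma adjusted p of 0.55. Its RA signal of clutch 3 was under background too, where signals have no order, so this separation was not measured. Of all probe sets, 6.98% lay higher and 8.28% lower with RA without overlap.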
